A study of Macaca mulatta with 24 samples.

Results

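The comparison described here is that of oral Beta-P with clinical treatment in the fetal hippocampus of the Rhesus macaque, read across the transcripts that were counted well in every library. Oral Beta-P is betamethasone phosphate given by mouth to the pregnant mother, 0.15 mg/kg in 3 doses with an interval of 12 hr. Clinical treatment is betamethasone phosphate plus betamethasone acetate injected into the mother's muscle, 0.25 mg/kg in 2 doses with an interval of 24 hr. The fetuses of both groups were delivered 5 days after treatment began, so drug form, route, dose and number of doses differ together and cannot be told apart. Each group had 4 fetuses with 1 hippocampus library each, 8 of the 24 libraries of the series, and the libraries are called clinical 1 to 4 and oral 1 to 4, numbers that pair nothing between treatments. Both groups were exposed to betamethasone, and no saline library was analysed here, so no value below compares steroid with no steroid. The transcripts chosen, called members, are the 16509 with at least 100 counts in each of the 8 libraries. They are 36.2% of the 45579 Ensembl transcripts listed and 56.8% of the 29041 that passed the filter of the test, and they held 96.83% to 97.26% of each library's counts.

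Betamethasone is a synthetic glucocorticoid that crosses the placenta and is given before preterm birth to mature the fetal lung. It binds the glucocorticoid receptor, a ligand-activated transcription factor that moves to the nucleus and raises or lowers the transcription of its target genes. The hippocampus, a region needed for memory, is rich in corticosteroid receptors and takes part in the feedback that restrains the release of the body's own glucocorticoid, which is why it is a tissue of interest for the safety of fetal exposure. The count tables name Ensembl transcripts only, and none could be paired with a gene symbol from the sources used here. Members are therefore described by level, by direction and by their level in the lung and liver of the same fetuses, and the tissue label could not be checked against marker genes.

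The libraries held 22537044 to 25942468 counts for clinical 1, 2 and 3, which came from run0064, and 32788826 to 35254898 for clinical 4 and the 4 oral libraries, which came from run0198. Run thus followed treatment in 7 of 8 libraries, and depth followed run. The limit of 100 counts was set mainly by the shallower run, since a member's lowest count lay in clinical 3 for 42.4% of members, in clinical 1 for 40.5% and in clinical 2 for 11.85%. Gestational age at delivery was 132 or 133 days with clinical treatment and 127, 129, 131 and 132 days with oral Beta-P, and the sex of each fetus is not given in the sources used here. No 2 libraries held the same values.

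The number of members called as different between the treatments, at 1.5-fold or more together with p below 0.05 and q below 0.1, was 0 with edgeR and 13 with DESeq2, and the 13 are described at the end. By edgeR's quasi-likelihood test with adjustment over all 29041 transcripts, 0 members and 0 of all transcripts tested (0%) were called, and the smallest q-value among members was 0.9999. An unadjusted p-value below 0.05 was found for 538 members (3.26%), against 3.11% of all transcripts tested. Of these, 258 were higher with oral Beta-P (1.56% of members, 1.69% of all tested) and 280 lower (1.70% of members, 1.41% of all tested). The median log2 fold change of the members was -0.0065, with 7848 members above 0 and 8661 below.

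The median size of the log2 fold change, whatever its sign, was 0.073, with a median standard error of 0.115, and 95% of members lay within 0.30. The fold change was 1.5 or more for 53 members that were higher with oral Beta-P (0.321%, against 5.06% of all tested) and for 37 that were lower (0.224%, against 3.74%), and it was 2 or more for 19 in either direction. The interval lay wholly beyond 1.5-fold for 4 members on the higher side and 2 on the lower, without adjustment for the number of members.

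**Figure D1:**
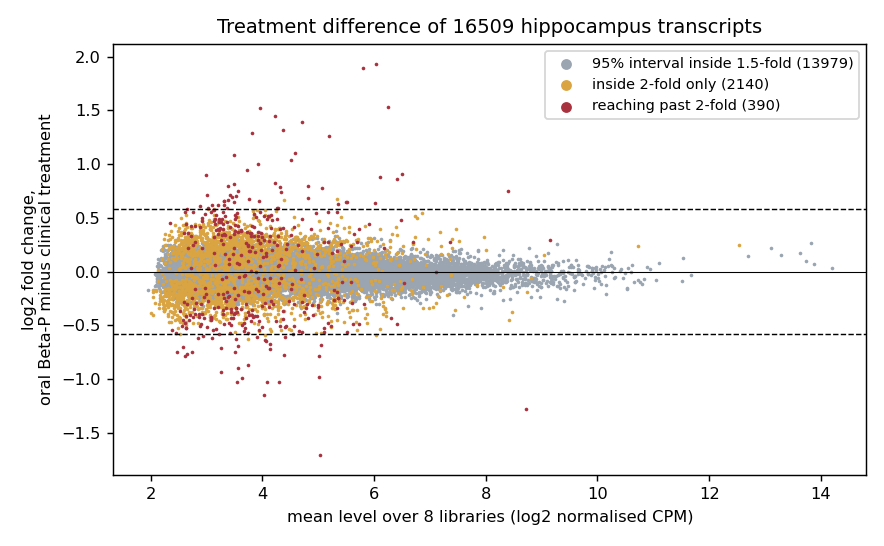
Each point is 1 of the 16509 members, with its mean level on the x axis (log2 normalised CPM) and its log2 fold change, oral Beta-P minus clinical treatment, on the y axis. Grey points (13979) have a 95% interval inside 1.5-fold, marked by dashed lines, and red points (390) have one that reaches past 2-fold. The interval contains the fold change, so points beyond 2-fold are red by construction.

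A p-value that misses a threshold does not show that a transcript was alike in both groups, so the size of difference left by the data was computed for each member as the larger end of its 95% interval, taken in either direction. The median member left at most 1.27-fold, and 90% of members left at most 1.60-fold. The whole interval lay within 25% higher and the reciprocal of that fold lower for 7124 members (43.2%, against 24.5% of all tested), inside 1.5-fold for 13979 (84.7%, against 52.2%) and inside 2-fold for 16119 (97.6%, against 72.6%). Of the remaining 390 members, the widest left 24.5-fold. An equivalence test, in which both one-sided tests against a 1.5-fold difference had to pass with adjustment over all transcripts tested, was met by 14053 members (85.1%, against 52.7%). The members were chosen for high counts, and high counts narrow intervals, so these higher shares describe precision rather than a property of the members.

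Precision followed level. The members were divided by mean level into 4 groups of equal size. In the lowest group, at 3.86 to 11.4 CPM (counts scaled to the library total, not corrected for transcript length), the interval lay inside 1.5-fold for 71.0%, and the shares in the next 2 groups were 80.9% and 90.7%. In the highest group, at 50.5 CPM and above, it was 96.1%. The median standard error was 0.156 in the lowest group and 0.0847 in the highest.

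**Figure D2:**
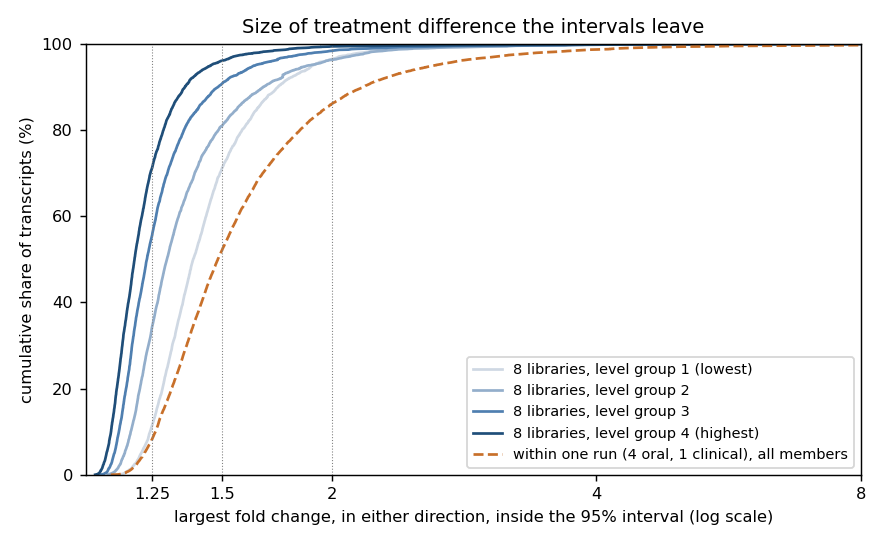
Cumulative share of members (y axis, %) whose 95% interval stays below the fold change on the x axis (log scale). Solid lines are the 4 groups of members by level, and 71.0% of the lowest and 96.1% of the highest group lie inside 1.5-fold. The dashed line gives all members from the 1 clinical and 4 oral libraries of run0198, where 52.0% do.

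The shares above rest on libraries from different runs. Within run0198, where clinical 4 is the only clinical library, edgeR's quasi-likelihood test called 0 members and 8 of all transcripts tested (0.0275%). Clinical 4 had 0 counts in 6 of these 8, which were no members, and 97 and 10 counts in the other 2. Leaving out 1 library gave 0 to 1 called members, with 1 when clinical 2, oral 1 or oral 2 was left out. With all libraries the interval lay inside 1.5-fold for 8589 members (52.0%) and inside 2-fold for 14207 (86.1%), and 1274 members (7.72%, against 7.27% of all tested) had an unadjusted p-value below 0.05. The fit used all 8 libraries, so clinical 1 to 3 enter its estimate of spread, and the lone clinical library is assumed to vary like the others. Between the runs within clinical treatment, that is clinical 4 against clinical 1 to 3, 0 members and 14 of all tested (0.0482%) were called, and 1378 members (8.35%, against 7.94%) had an unadjusted p-value below 0.05. The same single library enters both contrasts, so run and this fetus cannot be told apart. With gestational age as a covariate, 0 members were called and 9406 (57.0%) lay inside 1.5-fold.

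Whole libraries of different treatments were about as far apart as those of fetuses within a treatment. The root mean square difference between 2 libraries over the members, in log2 CPM, averaged 0.321 between treatments (0.265 to 0.381, 16 pairs), 0.346 within clinical treatment and 0.303 within oral Beta-P, 6 pairs each. The closest of all pairs was clinical 1 and oral 2, from different treatments and different runs. The share of the squared distance that lay between treatments was 12.97% (exact permutation test over the 70 ways to label 4 of 8 libraries, one-sided, p = 0.714). On the first principal component, which held 25.8% of the variance, clinical 3 and clinical 4 stood at 18.4 and 24.1, while clinical 1, clinical 2 and oral 1 stood together between -13.1 and -14.0. The clinical libraries were therefore spread over the whole axis. The spread between fetuses, as the standard deviation of log2 CPM, had a median of 0.160 with clinical treatment and 0.140 with oral Beta-P. It was larger with clinical treatment in 58.8% of members, against 59.5% of all transcripts tested. The clinical group spans both runs, and its pairs from the same run were 0.333 apart on average, against 0.303 for oral pairs. The part of run in this spread was not tested.

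**Figure D3:**
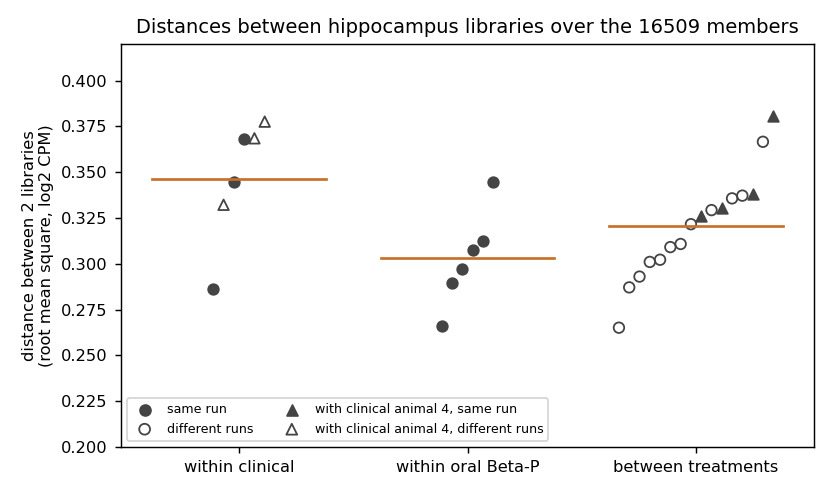
Distance between each pair of hippocampus libraries over the 16509 members (y axis, root mean square difference in log2 CPM, axis from 0.2), by pair type. Filled symbols are pairs from the same run, triangles are pairs with clinical 4, and lines are means: 0.346, 0.303 and 0.321.

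In 359 members the treatments did not overlap, meaning that the lowest value of one exceeded the highest of the other (2.17%, with 175 higher and 184 lower in the oral libraries), against 2.36% of all transcripts tested. The share in members was thus near that background.

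The members with the smallest p-values were named by rule, so their p-values describe how they were chosen. On the lower side the smallest was that of ENSMMUT00000029381.3, with 189, 189, 205 and 196 CPM in clinical 1 to 4 and 150, 137, 160 and 143 in oral 1 to 4. All oral values were below all clinical values. Its log2 fold change was -0.40 (SE 0.063), with an adjusted p of 0.9999 by edgeR's quasi-likelihood test. ENSMMUT00000031968.3 was also precisely measured, at 268 ± 13 CPM (SD, n = 4) with clinical treatment and 212 ± 12.1 (n = 4) with oral Beta-P, without overlap, and its log2 fold change was -0.34 (SE 0.061). Both are differences of less than 1.5-fold, at levels where the interval is narrow.

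ENSMMUT00000015809.3 had the largest fold change on the lower side and was near 0 in the other tissues, with 0.15 CPM in the lung and 0.046 in the liver when the libraries were normalised together. It had 26.3, 44.5, 62.5 and 67.5 CPM in clinical 1 to 4 and 15.9, 9.56, 19.2 and 16.7 in oral 1 to 4. The groups did not overlap, and clinical 1 was the clinical library nearest to the oral ones. Its log2 fold change was -1.71 (SE 0.32), with an interval from 0.186-fold to 0.503-fold and an adjusted p of 0.9999 by edgeR. Within run0198 the log2 fold change was -2.14 (SE 0.41). ENSMMUT00000073561.1 had the third largest fold change on that side, with 20.4, 32.4, 16.1 and 21.2 CPM in clinical 1 to 4 and 11, 9.19, 11.5 and 9.03 in oral 1 to 4. Its groups did not overlap in the hippocampus, nor in the lung, where it had 55.3 to 110 CPM with clinical treatment and 32.1 to 46.2 with oral Beta-P. In the liver they nearly met, at 12.4 to 28.5 CPM and 5.83 to 12.3. The log2 fold changes were -1.15 (SE 0.21) in the hippocampus, -1.15 (SE 0.20) in the lung and -1.11 (SE 0.29) in the liver, none with an adjusted p below 0.1 by edgeR. These 3 tissues came from the same 8 fetuses, so the values are not independent. ENSMMUT00000002799.3 had 20.9 ± 2.84 CPM with clinical treatment and 14.5 ± 0.811 with oral Beta-P (SD, n = 4 each), a log2 fold change of -0.53 (SE 0.11).

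On the higher side, ENSMMUT00000044874.2 had the smallest p-value, with 13.8, 13.7, 17.9 and 19.2 CPM in clinical 1 to 4 and 26.3, 26.7, 26.7 and 22.9 in oral 1 to 4. The groups did not overlap, and clinical 4 was the clinical library nearest to the oral ones. Its log2 fold change was 0.67 (SE 0.13), and within run0198 it was 0.42 (SE 0.18). ENSMMUT00000071584.1 had 31.2 ± 4.50 and 49.9 ± 7.74 CPM (SD, n = 4 each), a log2 fold change of 0.68 (SE 0.14), and ENSMMUT00000061071.1 had 34.9 ± 3.16 and 45.3 ± 2.39 CPM, a log2 fold change of 0.37 (SE 0.080). Both kept all oral values above all clinical ones.

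The other 2 of the 5 were at low levels in the hippocampus and far higher in another tissue of the same fetuses. ENSMMUT00000075671.1 had 6.66, 7.49, 12.2 and 5.71 CPM in clinical 1 to 4 and 32.5, 16, 24.5 and 18.9 in oral 1 to 4, a log2 fold change of 1.52 (SE 0.29), and had 6600 CPM in the liver. ENSMMUT00000029954.3 had 8.24, 8.98, 14.2 and 8.59 CPM and 43.7, 20.3, 23.0 and 22.3 CPM, a log2 fold change of 1.45 (SE 0.29), and had 1200 CPM in the lung. In both, oral 1 was the highest library and clinical 3 the highest clinical one, and both had an adjusted p of 0.9999 by edgeR's quasi-likelihood test. ENSMMUT00000002071.3 and ENSMMUT00000064003.1, among the 3 largest fold changes on the higher side, showed the same order, with oral 1 at 165 and 183 CPM, clinical 3 at 44.7 and 70.7, and 1920 and 2180 CPM in the lung. Their log2 fold changes were 1.90 (SE 0.48) and 1.54 (SE 0.40).

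**Figure D4:**
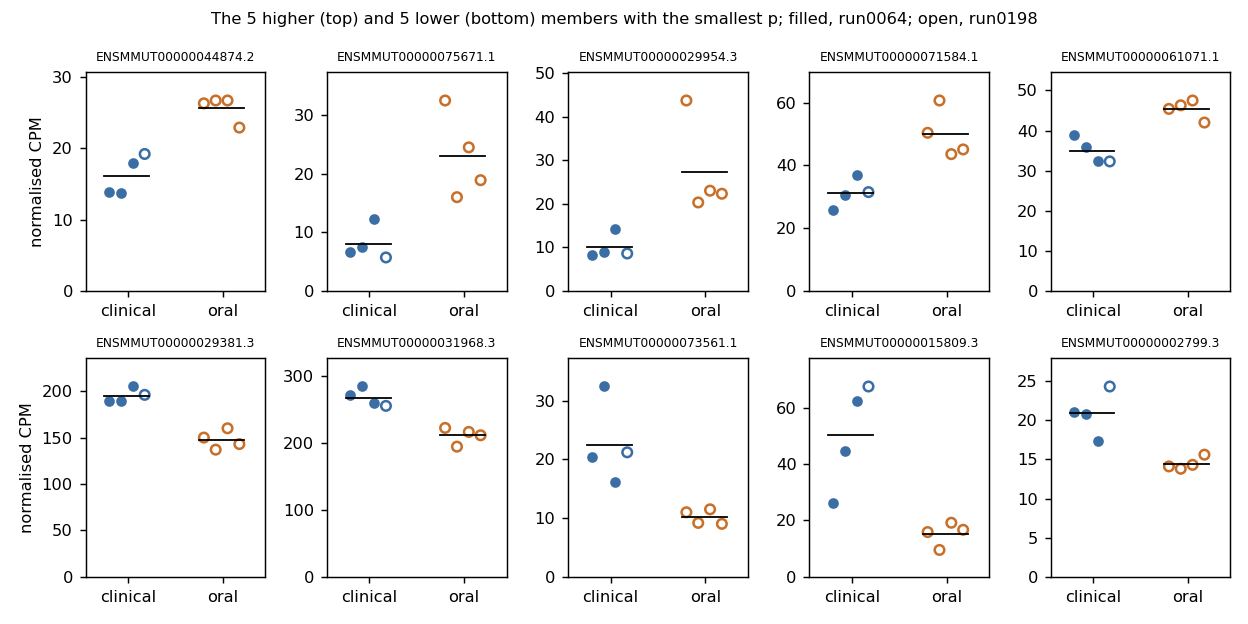
Normalised CPM of the 10 members named for the smallest p-values, 5 higher (top) and 5 lower (bottom) with oral Beta-P, with 4 libraries per treatment. Filled points are from run0064 and open points from run0198, and lines are means. The treatments do not overlap in any panel, which the choice by p-value over these 8 libraries, clinical 4 included, favours.

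Because these transcripts were more abundant in lung or liver, all members of that kind were examined. Among the 53 members past 1.5-fold on the higher side, 19 (35.8%) were at least 8-fold above their hippocampus level in the lung or the liver, against 3.25% of all members and 1 of the 37 at least 1.5-fold lower (2.70%). Oral 1 was the highest of the 8 libraries in 24 of these 53, and in 2043 of the 16509 members of either direction. The 53 were chosen for higher oral values, which favours an oral library as the highest. These counts therefore cannot be set against each other. The 276 members at least 8-fold higher in the lung had summed levels of 4860, 4627, 5573 and 4571 CPM in clinical 1 to 4 and 6019, 5229, 5326 and 5625 in oral 1 to 4. Oral 1 was highest and clinical 3 the highest clinical library, above 2 of the oral ones, so the groups overlapped. The median log2 fold change of these 276 was 0.11, against -0.0065 over the members, and 0 were called. At an unadjusted p-value below 0.05, 33 were higher (12%, against 1.69% of all tested) and 2 lower (0.725%, against 1.41%). Transcripts that prompted the set are counted in it, and transcripts of the same libraries are not independent, so these shares only describe the set. The log2 ratio of the summed levels was 0.18, and with a limit of 4-fold, which takes in 726 members, it was 0.099 and the median 0.066. The 322 members at least 8-fold higher in the liver summed to 6526 to 7048 CPM with clinical treatment and 6985 to 7556 with oral Beta-P, again with overlap. Their median log2 fold change was 0.033, with 20 higher (6.21%) and 10 lower (3.11%) at an unadjusted p-value below 0.05. Which cells of the sample carried these transcripts, and their part in the result, was not tested, since markers of lung, liver or vessel cells could not be named. In bulk tissue, fewer cells of a type and less RNA per cell cannot be told apart.

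The members that mark the hippocampus among the 3 tissues were the 1968 at least 8-fold above both lung and liver. Their summed level was 206800, 205700, 188900 and 203000 CPM in clinical 1 to 4 and 196300, 198700, 199800 and 195500 in oral 1 to 4. Clinical 1, 2 and 4 were above all oral libraries and clinical 3 was below them. The oral libraries thus lay within the clinical range through clinical 3 alone. The log2 fold change was above 0 for 873 of these members and below 0 for 1095, against 7848 and 8661 of all members. At an unadjusted p-value below 0.05, 14 of these members were higher (0.711%, against 1.69% of all transcripts tested) and 35 lower (1.78%, against 1.41%). Together they were 2.49% of the set, against 3.11% of all transcripts tested. Of the 1968 members 0 were called, and the interval lay inside 1.5-fold for 1499 (76.2%) and inside 2-fold for 96.4%. The 6153 members within 2-fold of each other in the 3 tissues had 91.5% inside 1.5-fold.

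The 10 highest members by CPM, which is not corrected for length, had log2 fold changes from -0.031 to 0.26, and the highest of all, ENSMMUT00000038274.2, had 18700 ± 2680 CPM with clinical treatment and 19100 ± 1470 with oral Beta-P (SD, n = 4 each), a log2 fold change of 0.030 (SE 0.10). The least precise of the 10 was ENSMMUT00000038258.1, with 9100, 5000, 3450 and 4150 CPM in clinical 1 to 4 and 6280, 6290, 6310 and 6930 in oral 1 to 4. Clinical 1 was the highest of all 8 libraries and the other 3 clinical libraries were the lowest. Its log2 fold change was 0.25 (SE 0.27), with an interval from 0.779-fold to 1.81-fold, and was 0.62 without clinical 1, 0.084 without clinical 3, 0.14 without clinical 4 and 0.64 within run0198. The narrowest intervals belonged to ENSMMUT00000078798.1, ENSMMUT00000063518.1 and ENSMMUT00000001767.3. ENSMMUT00000063518.1 had 161, 160, 159 and 156 CPM in clinical 1 to 4 and 154, 157, 152 and 152 in oral 1 to 4, and its interval ran from 0.902-fold to 1.04-fold. At the limit of 100 counts, the 3 members just inside had log2 fold changes of -0.11, 0.33 and 0.30, and the 3 transcripts just outside, with a lowest count of 99, had 0.076, 0.12 and 0.19.

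Some of the widest intervals came from transcripts that differed between fetuses in the same way in all 3 tissues, whichever treatment the mother had. ENSMMUT00000019253.3, with the widest interval, had 16, 704, 870 and 814 CPM in the hippocampus of clinical 1 to 4 and 9.38, 455, 4.08 and 520 in oral 1 to 4. Its 3 low fetuses, clinical 1, oral 1 and oral 3, were also the low ones in the lung, at 2.25 to 10.6 CPM against 335 to 565, and in the liver, at 0 to 7.58 against 244 to 380. ENSMMUT00000031622.3 took 3 levels in the hippocampus, near 4 to 5 CPM in clinical 2, oral 1 and oral 4, 26.4 to 30.2 in clinical 1, clinical 4 and oral 2, and 59.4 and 68.0 in oral 3 and clinical 3. The same fetuses were low, middle and high in the lung and the liver. ENSMMUT00000047806.2 was at 7.34 CPM in clinical 3 and at 118 to 213 in the other 7, and clinical 3 was lowest in the lung and liver as well, at 11.5 and 18.0 CPM. ENSMMUT00000053805.1, the largest fold change on the higher side at 1.94 (SE 0.66), was high in 2 oral fetuses only, with 156 and 202 CPM in oral 1 and oral 4 and 19.8 to 35.7 in the other 6, and these 2 were high in the lung (373 and 385 CPM) and liver (187 and 236 CPM).

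**Figure D5:**
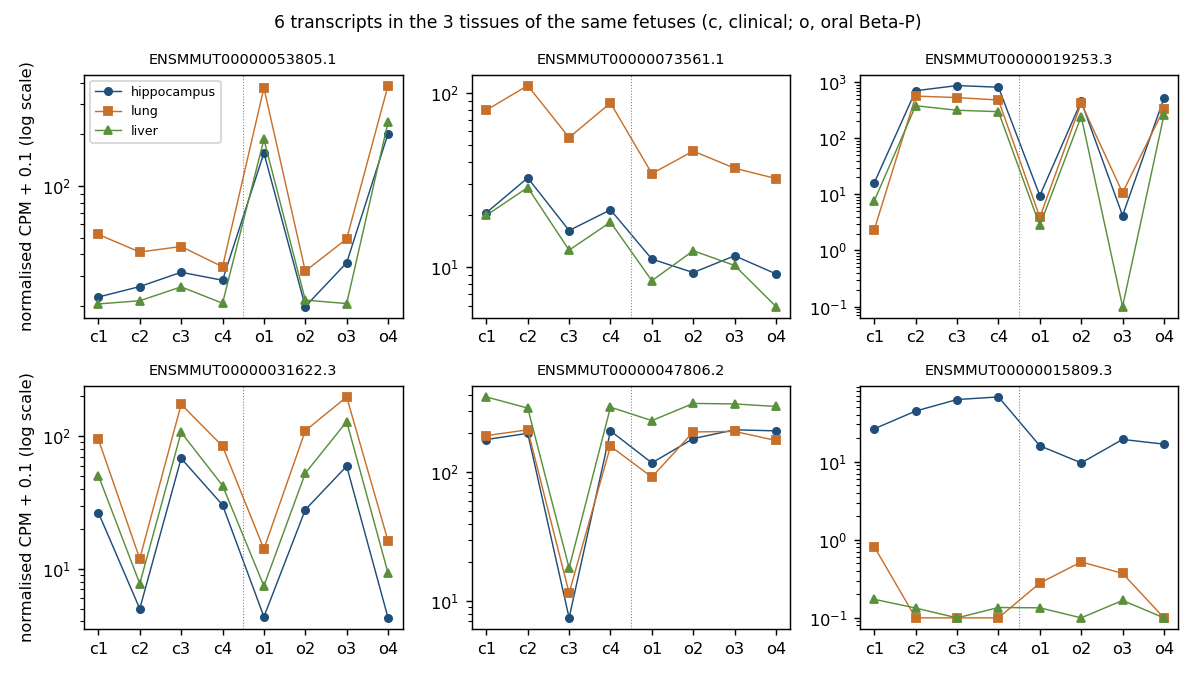
Normalised CPM plus 0.1 (log y axis) of 6 transcripts in the hippocampus, lung and liver of the same 8 fetuses (x axis, c1 to c4 clinical, o1 to o4 oral). For ENSMMUT00000019253.3, ENSMMUT00000031622.3, ENSMMUT00000047806.2 and ENSMMUT00000053805.1 the lines of the 3 tissues rise and fall with the same fetuses, while ENSMMUT00000015809.3 is near 0 outside the hippocampus.

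To count such members, the deviations of the 8 fetuses from their treatment means were correlated between the hippocampus and each other tissue, in log2 CPM. The correlation reached 0.9 with both lung and liver for 30 members (0.182%), of which 19 were among the 390 with an interval past 2-fold (4.87% of these) and 2 among the 13979 inside 1.5-fold (0.0143%). The limit of 0.9 was chosen after the values had been seen, and the 8 points share the fetus and carry no test. The other wide members did not reach this limit in both tissues, and their correlations varied. ENSMMUT00000073561.1 had correlations of 0.72 with the lung and 0.70 with the liver. ENSMMUT00000000482.3, with hippocampus values of 5.77 to 241 CPM, had correlations of -0.31 with the lung and 0.26 with the liver.

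The members were also read in the lung and liver of the same fetuses. They were chosen for high counts in the hippocampus alone, which lowers the standard errors and the size of chance differences there, so the medians that follow are not a comparison of the tissues. The median size of the log2 fold change was 0.073 in the hippocampus, 0.121 in the lung (15555 members tested) and 0.148 in the liver (14913), with median standard errors of 0.115, 0.129 and 0.182. The difference itself was tested per transcript as an interaction of tissue and treatment. Against the lung, 7 members had a q-value below 0.1 (0.0417% of all transcripts tested were called), and against the liver 2 (0.0352% of all tested), by edgeR's quasi-likelihood test. These fits took libraries of the same fetus as independent. With the animal as a replicate block both counts were 0. Lung and liver libraries mostly came from other runs than the hippocampus library of the same fetus, so run was not separated from tissue. The hippocampus log2 fold change of these 9 members lay between -0.21 and 0.33, and 3 of the 9 had no value in the other tissue because their counts there were too low for its fit. The log2 fold change of ENSMMUT00000002417.3 was -0.048 in the hippocampus and 1.26 (SE 0.22) in the lung, and that of ENSMMUT00000017720.3 was 0.042 and -0.78 (SE 0.12).

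DESeq2 at the same thresholds called 13 members, 8 higher and 5 lower, and 66 of the 39947 transcripts it tested (0.165%). It differs from the edgeR fit in the filter and the normalization as well as the test, and edgeR with no filter on low counts, or with RLE normalization, called 0 members. The 13 members were chosen on the same 8 libraries, which favours a small p-value by edgeR and a lack of overlap. All 13 had an unadjusted p-value below 0.05 by edgeR, and 11 did not overlap between treatments, against 2.36% of all transcripts tested by edgeR. They included ENSMMUT00000015809.3 (adjusted p of 8.6e-05 by DESeq2), ENSMMUT00000073561.1 (0.00094), ENSMMUT00000075671.1 (0.0011), ENSMMUT00000029954.3 (0.0017), ENSMMUT00000044874.2 (0.0051) and ENSMMUT00000071584.1 (0.0070). ENSMMUT00000029381.3 and ENSMMUT00000031968.3, the most precise of the lower members above, were under the fold change threshold, and ENSMMUT00000029381.3 had the smallest adjusted p of the members by DESeq2 (4.3e-07).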

How the data were processed

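RNA was sequenced after polyA selection as paired-end reads of 75 bp. The authors aligned the reads with STAR to the macaque build MMUL1.0, and the submitters' processing notes also name featureCounts and DESeq2. Versions, annotation release and the handling of reads shared by transcripts are not given in the sources used here, so a transcript's count can depend on how such reads were divided. The deposited hippocampus and lung values are whole counts per Ensembl transcript without normalization. The deposited liver values are estimated counts, and these were rounded.

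The quasi-likelihood test of edgeR 4.0.16 (with limma 3.58.1 under R 4.3.3) was fitted to the 8 hippocampus libraries with filterByExpr, TMM normalization, treatment as the only term and Benjamini-Hochberg adjustment over all transcripts tested. Standard errors were derived from the F statistic and 95% intervals from the t distribution of the fit. A member at the limit of 100 counts has a counting error of 10%, and intervals assume libraries that vary alike. The interaction fits joined the hippocampus with the lung or liver. The pairing of tissues by animal number comes from the labels, since each number is 1 fetus. Deviations of the same fetus from its treatment mean correlated across members by 0.0721 on average for the lung and 0.0686 for the liver. For other fetuses of the treatment the averages were -0.0241 and -0.0229. Subtracting the treatment mean sets these negative averages, so they are no separate baseline for the pairing. DESeq2 was version 1.42.0. Scripts were tested on simulated data.

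The transcripts named were the 10 most abundant, those with the smallest p-value (5 per direction), the largest fold change (3 per direction), the widest and narrowest intervals and those at the count limit. The tissue-level sets, the most variable members and those unlike in lung or liver were added after values were seen, and fetal comparisons between tissues likewise. The members and lists were chosen with earlier results of these data known. Gene lists and cell type markers were prepared but could not be applied without gene names. The fetuses were separate animals, 1 library each.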

Additional observations from a re-analysis of the deposited data

Results flagged for a closer look

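Among 90 groups of 4 libraries examined, 8 had 1 library far from the other 3. For independent groups chance would give about 4.5. Most of the groups were transcripts named from values in these same libraries, so that number is not a fair baseline. In oral 4, ENSMMUT00000038258.1 had 6930 CPM against 6280 to 6310 in the other oral libraries, ENSMMUT00000044874.2 had 22.9 against 26.3 to 26.7, and ENSMMUT00000078798.1 had 513 against 501 to 503. In oral 1, ENSMMUT00000029954.3 had 43.7 CPM against 20.3 to 23.0 and ENSMMUT00000002071.3 had 165 against 52.7 to 67.6. In clinical 3, ENSMMUT00000029954.3 had 14.2 CPM against 8.24 to 8.98 in the other clinical libraries, ENSMMUT00000064003.1 had 70.7 against 24.7 to 30.9, and ENSMMUT00000047806.2 had 7.34 against 179 to 209. Of these, ENSMMUT00000029954.3, ENSMMUT00000002071.3 and ENSMMUT00000064003.1 are transcripts at 1200 to 2180 CPM in the lung.

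The interaction test of edgeR that took libraries of the same fetus as independent gave a q-value below 0.1 for 7 members against the lung and 2 against the liver. With the animal as a replicate block, which keeps the pairing, it gave 0 members.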

How the results depend on the processing

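Apart from fits within run0198 with 1 library left out, no member was called under the alternative fits of edgeR or limma, and 13 were called by DESeq2. The members inside 1.5-fold numbered 13074 to 13461 with 1 library left out in turn, 8589 with run as a covariate and 26 with intervals at the Bonferroni level. Inside the limit of 25% higher or its reciprocal the number was 7124, with 1364 for run, 1908 for gestational age and 0 at the Bonferroni level, and inside 2-fold it was 3291 at the Bonferroni level. With run as a covariate 1274 members had an unadjusted p-value below 0.05. Within run0198, leaving out 1 library gave 0 to 1 called members, with 1 when clinical 2, oral 1 or oral 2 was left out. The liver-high members had a log2 ratio of summed CPM of 0.10, or 0.041 with a 4-fold limit. For the interaction, the animal as replicate block gave 0 members for the lung and 0 for the liver, and leaving out 1 animal gave 0 to 4 and 0 to 7. Cause was not tested in any of these cases. Low counts limit the interval, and a member near 100 counts cannot show a small difference at this depth.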
